A study of Homo sapiens with 14 samples.

Results

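The MYC, MAX and MXD network was followed in UM1, an established human line from a squamous carcinoma of the tongue. Its genes were chosen by name: MYC, its partner MAX, the antagonists MXD1, MXI1, MXD3, MXD4 and MNT, and the related factors MLX and MGA, 9 genes in all. All 9 were listed in both deposited tables, among 16237 genes in the first, 16137 in the second and 14951 in both. The network was taken up because MXD1 had moved in opposite directions in the 2 experiments, so the values of MXD1 are given as a description with no test.

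RNA-seq covered 10 libraries in 2 experiments, each with its own table of TPM, a length-corrected transcript abundance with the same total in each library. The knockdown experiment set 2 libraries of UM1 cells with a short hairpin against PRMT5, a protein arginine methyltransferase, beside 2 with a hairpin against GFP (shGFP). The overexpression experiment set 3 libraries of UM1 cells overexpressing ΔNp63α, the TP63 product of basal squamous epithelium, beside 3 with the vector. All 4 groups are the same line, and the labels give no hairpin sequence, no promoter of the construct, no clone and no time. The stated question of the series is how PRMT5 bears on gene regulation by ΔNp63α. The titles call the replicates biological, and separate cultures are not mentioned, so a p-value here measures the spread between these samples alone, and that spread may be technical. A further 4 samples, from CUT&Tag, are not analysed here.

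MYC, MAX and the MXD proteins are transcription factors of the basic helix-loop-helix zipper class. MYC and the MXD proteins each pair with MAX and bind the E-box, CACGTG. MYC-MAX pairs activate genes of growth and ribosome production, whereas MXD-MAX and MNT-MAX pairs recruit the SIN3-HDAC corepressor and silence overlapping genes. In keratinocytes MYC is known for proliferation of the basal layer, and MXD1 for cells that leave the cycle and differentiate.

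The labelled state of the libraries was checked first. PRMT5 had 143 and 126 TPM with shGFP, against 29.3 and 33.6 TPM with its own hairpin (limma adjusted p = 9.74e-09). TP63, all transcripts together, had 138, 82.3 and 97.3 TPM with vector, against 152, 160 and 168 TPM with ΔNp63α (log2 fold of TPM + 1 0.62, limma adjusted p = 0.0300, a call lost when any 1 of 5 libraries was left out). PRMT5 was also higher under ΔNp63α, with 131, 97.0 and 118 TPM against 95.4, 61.1 and 68.6 TPM with vector. Its log2 fold was 0.63 (limma adjusted p = 0.0325), a call lost in 5 of 14 alternatives. TP63 was not called in the knockdown (log2 fold 0.02). All 9 squamous epithelial markers were listed in both tables, and their summed level was 12693 to 14144 TPM with either hairpin, 8288 to 14671 TPM with vector and 19257 to 34049 TPM under ΔNp63α. The part of that difference in the results for ΔNp63α was not tested. Of 6 mesenchymal markers 3 were listed in each table, summing to at most 19.2 TPM, with COL1A2, PDGFRA and DCN not listed. Of 5 leukocyte markers 1 was listed, at 4.49 TPM at most, and PTPRC was not. The endothelial markers summed to at most 1.39 TPM, with CDH5 and KDR not listed. The tables omit a gene that is at 0 in any library, and TPM keeps no depth, so no counting interval is given.

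The network's own binding site, the E-box, was looked for in the 250 bases before the start of each gene, since the family is known to bind promoters of its own members. RefSeq windows (GRCh38.p14) were found for 8 of the 9 genes, 13 windows in all, and none was found for MYC. CACGTG, which reads the same on both strands, lay in 3 windows, those of MXD4, MNT and MLX, against 6.34% of all 35116 windows of the same length. The variant CACGCG, searched on both strands and unable to overlap CACGTG, lay in 1 window of MGA and in 9.72% of all windows. The 3 E-boxes are shown with 12 bases on either side, 5′ to 3′ on the gene's strand and with the E-box in capitals:
MXD4 (chr4:2262330-2262359, minus strand): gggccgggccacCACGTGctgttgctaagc
MNT (chr17:2401236-2401265, minus strand): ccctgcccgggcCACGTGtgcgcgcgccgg
MLX (chr17:42567038-42567067, plus strand): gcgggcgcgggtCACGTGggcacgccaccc
They begin 238, 193 and 50 bases before the start. The window of MXD1, the gene that moved most, is given whole. It holds neither motif and is 64.4% G or C, against a median of 58% over all windows:
MXD1 (chr2:69914859-69915108, plus strand): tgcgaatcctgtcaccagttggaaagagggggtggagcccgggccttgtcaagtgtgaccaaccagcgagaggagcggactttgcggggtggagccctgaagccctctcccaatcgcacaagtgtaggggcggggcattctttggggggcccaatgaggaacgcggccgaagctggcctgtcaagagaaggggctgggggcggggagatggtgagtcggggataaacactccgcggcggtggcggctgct
A match, or its absence from these windows, is a description of the sequence only.

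MYC was the most abundant of the 9 genes in all 10 libraries and MGA the least abundant in each group. In shGFP cells the order of mean TPM was MYC, MLX, MXD4, MXD3, MAX, MXI1, MNT, MXD1 and MGA, with no overlap between neighbours. With vector it was MYC, MXI1, MXD1, MLX, MXD4, MAX, MXD3, MNT and MGA. There the ranges of MXI1, MXD1, MLX and MXD4 ran into each other, as did those of MXD3 and MNT. Under shPRMT5 and under ΔNp63α MXD1 was at place 8, overlapping MNT, and under ΔNp63α MXI1 was at place 5, overlapping MAX. MAX, the partner with which MYC binds DNA, was far below MYC throughout: the ratio of MYC to MAX TPM was 8.72 and 8.65 under shGFP, 7.85 and 7.07 under shPRMT5, 11.8, 11.9 and 14.2 with vector and 12.5, 9.67 and 11.1 under ΔNp63α. These are levels of mRNA, and protein was not measured.

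**Figure D1:**
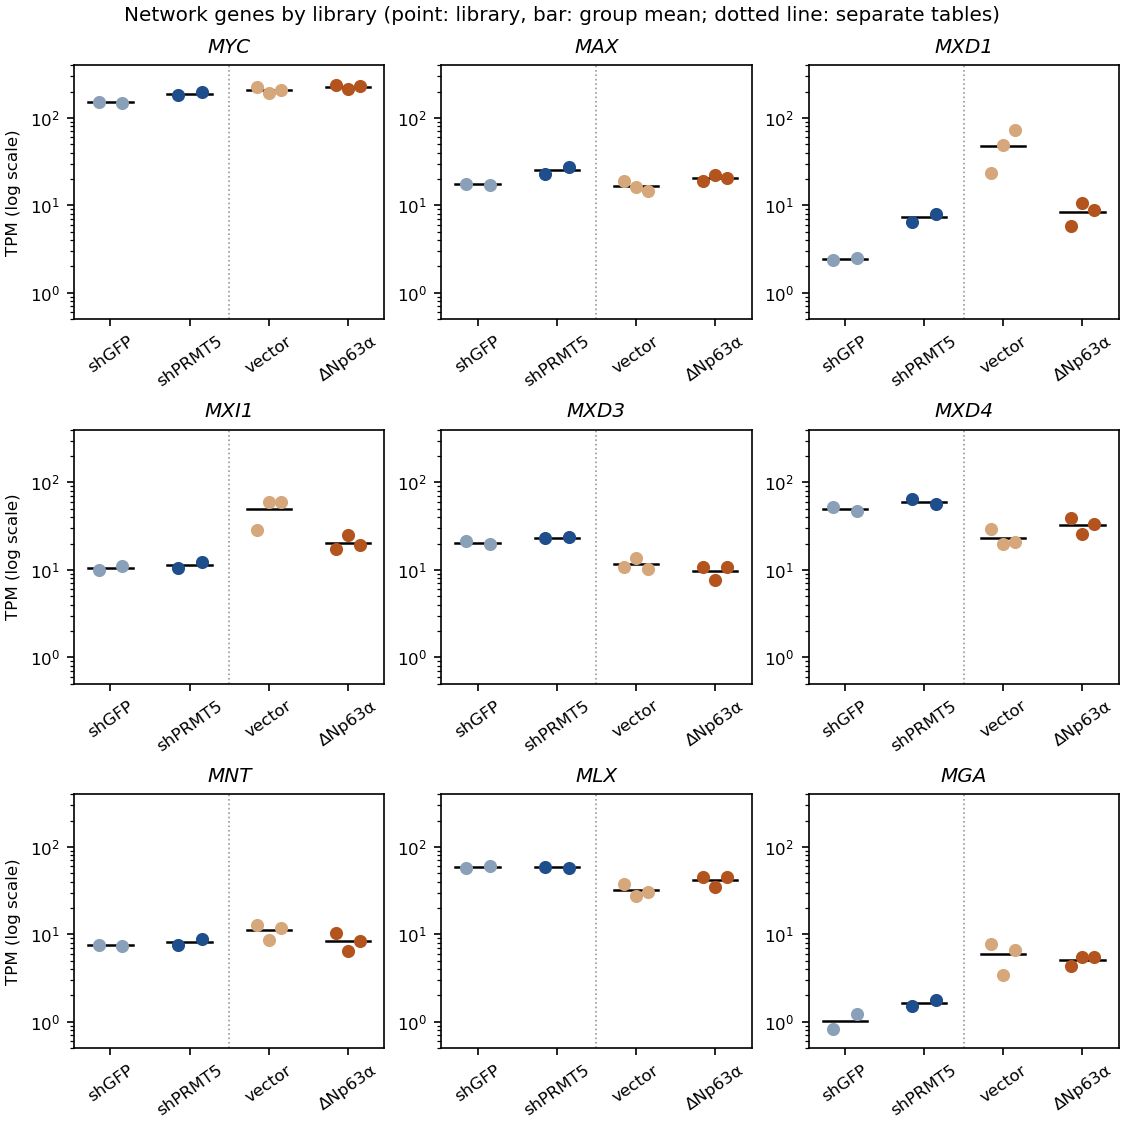
TPM of the 9 network genes on a log scale in each library (points) with the group mean (bar); the dotted line separates 2 tables that were normalized separately. MXD1 is high in the vector libraries (23.3 to 72.2 TPM) and low under ΔNp63α (5.88 to 10.6 TPM), and it is higher under shPRMT5 (6.51 and 8.05 TPM) than under shGFP (2.37 and 2.52 TPM).

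PRMT5 knockdown came with a higher level of MXD1, while MYC, MAX and the other antagonists were not called. MXD1 had 2.37 and 2.52 TPM with the control hairpin, then 6.51 and 8.05 TPM with that against PRMT5, so the groups did not overlap. The ratio of means was 2.97 and the log2 fold, on the log2(TPM + 1) scale used throughout, was 1.26 (SE 0.27, n = 2 each). The median log2 fold over all 12635 genes tested was 0.25, and MXD1 lay 1.01 above it. Its log2 fold was larger than that of 99.0% of the genes tested. After median-of-ratios rescaling, which brought the median of all genes to 0.0021, it was 1.03. Whether a change of level in such bulk RNA reflects more cells with the transcript or more RNA per cell cannot be told apart.

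MYC and MAX, the activating pair, had log2 folds 0.07 and 0.26 above the median of all genes and were not called. MYC had 153 and 149 TPM in the controls, and 181 and 196 TPM after knockdown (log2 fold 0.31, SE 0.16, limma adjusted p = 0.154). MAX had 17.6 and 17.3 TPM, then 23.0 and 27.7 TPM (log2 fold 0.51, SE 0.21, limma adjusted p = 0.0910). With a replicate block MAX was called (limma adjusted p = 0.0485). In both genes each shPRMT5 library lay above each shGFP library, but after rescaling the log2 folds were 0.03 for MYC and 0.24 for MAX. Without shGFP replicate 1, MYC passed the threshold at a log2 fold of 0.33 (limma adjusted p = 0.0439).

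The other antagonists did not pass the test. MXD4, the most abundant antagonist in this table, had 52.5 and 47.5 TPM in the controls, and 64.1 and 56.6 TPM after knockdown (log2 fold 0.27, SE 0.18). MXD3, whose level in other cells peaks in S phase, had 21.1 and 19.9 TPM, then 22.9 and 23.8 TPM (log2 fold 0.18, SE 0.21). In both genes the groups stood apart, and both log2 folds lay within 0.07 of the median of all genes. MXI1, which like MXD1 recruits SIN3 to MAX sites, had 9.93 and 11.2 TPM, then 10.4 and 12.4 TPM, with overlapping groups (log2 fold 0.10, SE 0.24). MNT, the broadly expressed antagonist, had 7.65 and 7.30 TPM, then 7.63 and 8.76 TPM, also overlapping (log2 fold 0.12, SE 0.25). After rescaling the log2 folds of all 4 lay below 0, between -0.16 and -0.01.

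MLX, which pairs with the glucose-sensing factors MondoA and ChREBP and also with MXD1, MXD4 and MNT, had 57.8 and 60.4 TPM in the controls, and 59.3 and 58.1 TPM after knockdown (log2 fold -0.0089, SE 0.18). MGA, a scaffold of a variant Polycomb complex, had 0.826 and 1.23 TPM, then 1.52 and 1.77 TPM (log2 fold 0.39, SE 0.30), a level near the filter of 1 TPM. Of the 8 genes other than MXD1, 0 were called higher and 0 lower by limma over all genes, and 1 (MAX) had an unadjusted p under 0.05. Over all genes 15.1% were called higher and 3.48% lower, 18.6% together. The shPRMT5 libraries lay above the shGFP libraries without overlap in 5 of the 8, a state shared by 49% of all genes tested (63% in either direction), and the median log2 fold of the 8 was 0.22 beside 0.25 for all genes.

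Under ΔNp63α the antagonists MXD1 and MXI1 were lower than with vector, while MYC and MAX were not called. MXD1 had 23.3, 49.1 and 72.2 TPM with vector, against 5.88, 10.6 and 8.80 TPM with ΔNp63α. Its groups did not overlap, although the vector libraries spanned a 3.10-fold range. Such a lower level without overlap was shared by 23.7% of all genes tested (14.2% were higher without overlap, 37.9% in either direction). The mean of MXD1 was 5.73-fold lower and its log2 fold -2.28 (SE 0.33, n = 3 each), below that of all but 0.478% of the 13382 genes tested, whose median was -0.04. The log2 fold of MXD1 was -2.72 without vector replicate 1 and -1.92 without vector replicate 3.

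MXI1 fell from 28.3, 60.5 and 60.3 TPM to 17.2, 24.8 and 19.3 TPM, a 2.43-fold lower mean (log2 fold -1.18, SE 0.27, limma adjusted p = 0.00864). As for MXD1, vector replicate 1 was the lowest vector library, and still lay above every ΔNp63α library. The call held in each of the 14 alternatives run, with adjusted p between 7.48e-05 and 0.0487, and the log2 fold was between -1.53 (without vector replicate 1) and -0.998 (without vector replicate 2).

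MYC had 224, 194 and 208 TPM with vector, against 237, 216 and 230 TPM with ΔNp63α, the groups overlapping (log2 fold 0.13, SE 0.13, limma adjusted p = 0.545). MAX had 19.0, 16.3 and 14.6 TPM, against 19.0, 22.4 and 20.8 TPM (log2 fold 0.30, SE 0.17, limma adjusted p = 0.220), the highest vector library lying just below the lowest ΔNp63α library.

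Of the remaining antagonists none passed the threshold. MXD4 had 29.4, 19.9 and 20.6 TPM with vector, against 39.6, 25.6 and 33.3 TPM with ΔNp63α (log2 fold 0.48, SE 0.20, limma adjusted p = 0.117). It was called without vector replicate 1 (log2 fold 0.65, limma adjusted p = 0.0325) and with a replicate block (limma adjusted p = 0.0278). MXD3 had 10.8, 13.8 and 10.3 TPM, against 10.9, 7.69 and 10.8 TPM (log2 fold -0.23, SE 0.20). MNT had 12.8, 8.56 and 11.9 TPM, against 10.4, 6.42 and 8.42 TPM (log2 fold -0.36, SE 0.22). The groups of all 3 genes overlapped.

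MLX had 37.5, 27.6 and 30.6 TPM with vector, against 45.5, 34.4 and 45.5 TPM with ΔNp63α, with 1 treated library inside the vector range (log2 fold 0.38, SE 0.18, limma adjusted p = 0.148). MGA, with 7.70, 3.44 and 6.69 TPM against 4.34, 5.49 and 5.49 TPM, kept within the vector range (log2 fold -0.13, SE 0.25, and 0.02 after quantile normalization). Of the 8 genes other than MXD1, 0 were called higher and 1 lower, beside 7.34% and 14.1% of all genes (21.5% together), and 2 (MXI1 and MXD4) had an unadjusted p under 0.05. The 3 genes with an E-box in the window shown, MXD4, MNT and MLX, had log2 folds of 0.48, -0.36 and 0.38.

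**Figure D2:**
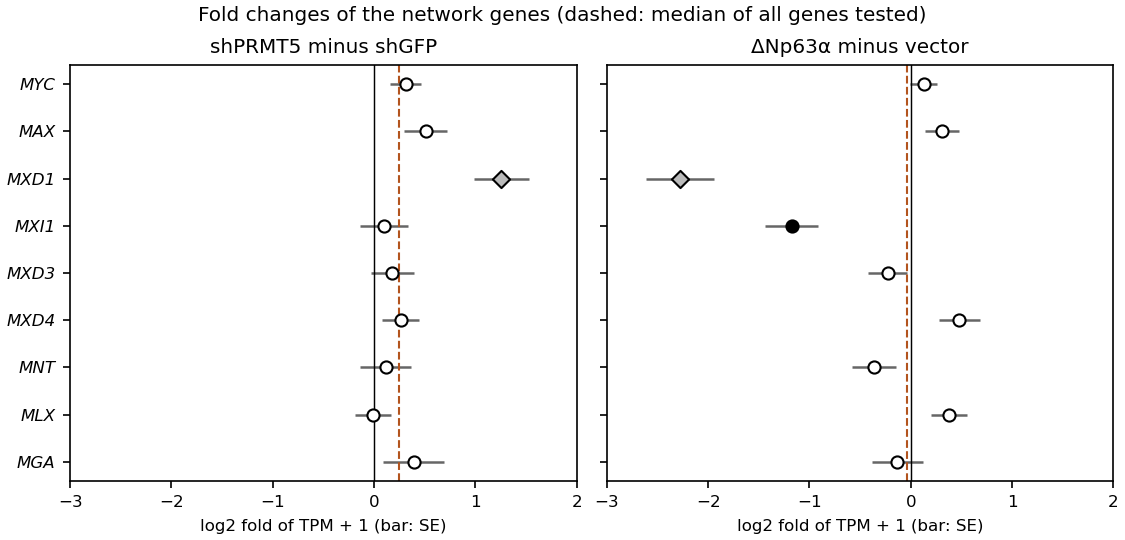
Log2 fold of TPM + 1 with its standard error for each network gene in the knockdown (left) and the overexpression (right); filled circles passed limma at an adjusted p under 0.05, open circles did not, the grey diamond is MXD1 (not tested) and the dashed line is the median of all genes tested. MXD1 stands at 1.26 and -2.28, and MXI1 at -1.18 in the overexpression is the 1 filled circle.

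The makeup of the antagonist pool was read as TPM summed over the antagonists and MGA, which also pairs with MAX and can repress its sites, within each library (MXD1, MXI1, MXD3, MXD4, MNT and MGA); a ratio within a library does not depend on its scaling. The pool held 94.4 and 89.7 TPM under shGFP, 113 and 111 TPM under shPRMT5, 112, 155 and 182 TPM with vector and 88.3, 80.6 and 86.2 TPM under ΔNp63α. MXD1 supplied 2.51% and 2.81% of it under shGFP and 5.75% and 7.23% under shPRMT5. With vector it supplied 20.7%, 31.6% and 39.7%, and under ΔNp63α 6.66%, 13.1% and 10.2%. MXD4 was the leading antagonist in every library of both experiments except vector replicates 2 and 3, where MXI1 and MXD1 led.

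The ratio of MYC to the pool was 1.63 and 1.67 under shGFP and 1.6 and 1.76 under shPRMT5, overlapping. It was 1.99, 1.25 and 1.14 with vector and 2.69, 2.68 and 2.67 under ΔNp63α, where each library lay above each vector library. MXD1 and MXI1 together made up 51.5, 109.5 and 132 TPM with vector and 23.1, 35.3 and 28.1 TPM under ΔNp63α. The other 4 antagonists summed to 60.7, 45.7 and 49.5 TPM and to 65.3, 45.2 and 58.1 TPM, overlapping. Since the pool holds MXD1, on whose change the genes were taken up, this ratio carries no test.

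**Figure D3:**
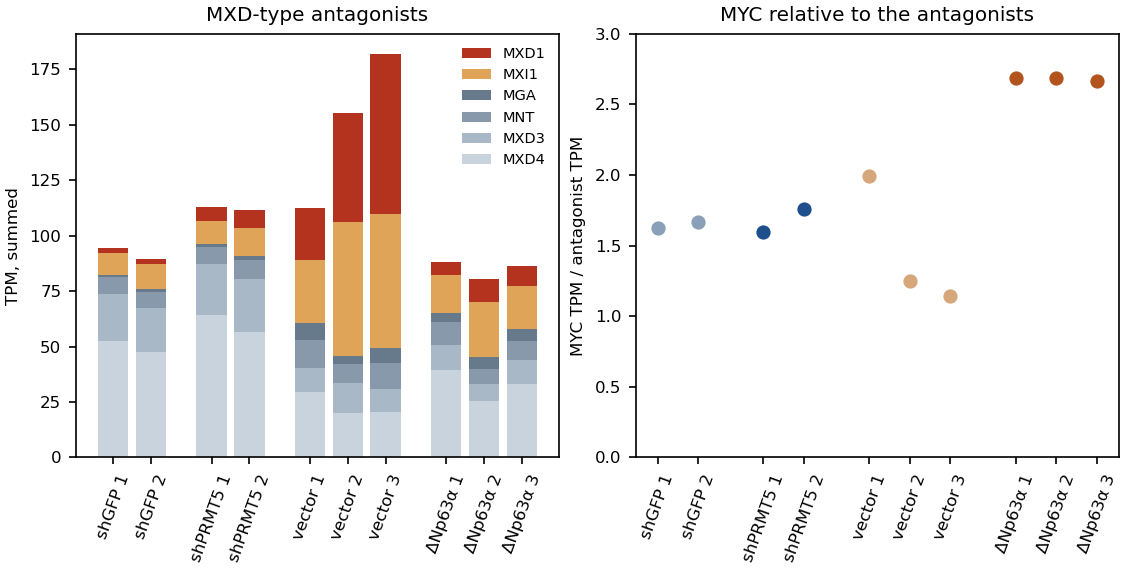
Left, TPM of the 6 antagonists stacked by library; right, MYC TPM divided by that sum, with 1 point per library. MXD1 and MXI1 account for the tall vector columns, and the ratio is 2.67 to 2.69 under ΔNp63α against 1.14 to 1.99 with vector; the 2 experiments come from tables normalized separately.

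The genes whose pattern was most like that of MXD1 were sought by the root mean square difference of log2(TPM + 1), centred within each table, over the 10 libraries and 10851 other genes tested in both tables. SERPINA1, the antitrypsin gene, came nearest at 0.32 log2 units, against a median of 1.03. HK2, the inducible hexokinase, followed at 0.38, with TNFRSF9, CTSS and TPBG at 0.40 each. Group means of SERPINA1 were 0.611 and 1.62 TPM in the knockdown experiment and 5.05 and 0.495 TPM in the overexpression experiment, control first. It passed the filter of 1 TPM through the shPRMT5 and the vector libraries, where it was higher. Group means of HK2 were 10.3 and 17.1 TPM, then 85.5 and 26.2 TPM. TNFRSF9, a receptor of activated T cells, had 11.9 and 15.01 TPM, then 19.8 and 4.43 TPM. All 5 genes had log2 folds above 0 in the knockdown, from 0.32 to 0.70, and below 0 in the overexpression, from -2.10 to -1.63, as the choice by likeness fixes. Among the network genes MXI1 ranked highest, at place 88, and MXD4 lowest, at place 9935.

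Other genes of the pathway were read from 8 lists. The other partners of MAX and MLX come first. MLXIP, which encodes MondoA, rose in the knockdown, from 27.2 and 22.2 TPM to 39.2 and 45.0 TPM (log2 fold 0.75, SE 0.20, limma adjusted p = 0.0120). It was not called in 5 of 12 alternatives, among them rescaling (adjusted p = 0.123, the range over all 12 being 0.00074 to 0.362) and leaving out either shPRMT5 library. MYCL, the MYC relative, fell under ΔNp63α, from 7.30, 6.44 and 6.67 TPM to 3.33, 2.66 and 3.23 TPM (log2 fold -0.94, SE 0.18, limma adjusted p = 0.00398). MLXIPL, which encodes ChREBP, was called in neither experiment, and MYCN was not tested in either.

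The targets of MondoA-MLX pairs are TXNIP, an arrestin-like inhibitor of glucose uptake, and its relative ARRDC4. TXNIP was lower in both experiments. It fell from 145 and 193 TPM to 91.9 and 93.8 TPM in the knockdown (log2 fold -0.84, SE 0.17, limma adjusted p = 0.00146), a call that was lost without shPRMT5 replicate 2. Under ΔNp63α it fell from 317, 981 and 1030 TPM to 159, 310 and 244 TPM (log2 fold -1.58, SE 0.38, limma adjusted p = 0.0122), a call lost without ΔNp63α replicate 1. ARRDC4 fell under ΔNp63α, from 11, 23.6 and 20.2 TPM to 5.97, 9.43 and 8.60 TPM (log2 fold -1.06, limma adjusted p = 0.0144), a call lost without vector replicate 3 or ΔNp63α replicate 1. In the knockdown it had 3.46 and 2.25 TPM against 4.88 and 4.26 TPM and was not called (limma adjusted p = 0.169). Vector replicate 1 was the lowest vector library for TXNIP, ARRDC4, MXD1 and MXI1 alike, and for TXNIP it lay just above the highest ΔNp63α library.

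Of 18 tested genes of the SIN3-HDAC corepressor, 8 were higher and 0 lower in the knockdown, where 15.1% and 3.48% of all genes were called, with a median log2 fold of 0.56 beside 0.25 for all genes. They included SIN3A, the scaffold that MXD proteins bind, with 6.14 and 6.05 TPM in the controls, and 11.5 and 13.6 TPM after knockdown (log2 fold 0.93, SE 0.25, limma adjusted p = 0.0111), and BRMS1L, at a log2 fold of 0.97. After rescaling 0 of the 18 were called (SIN3A limma adjusted p = 0.0519), while all genes called higher fell from 1904 to 457. With each library left out the log2 fold of SIN3A ran from 0.81 to 1.04. Such a fit leaves 1 library in a group, so only its log2 fold is given for this list. The count of higher genes was 3 with no filter, 3 with no trend and 1 after quantile normalization. All genes called higher numbered 756, 950 and 400 in these fits, in that order. Under ΔNp63α 0 of 19 were called by limma, beside 7.34% of all genes called higher and 14.1% lower, and the median was 0.12 beside -0.04. After rescaling 2 were higher, while all genes called higher rose from 982 to 1495.

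Of the MYC coactivators tested in the knockdown, 7 of 17 were higher and 0 lower, beside 15.1% and 3.48% of all genes (median log2 fold 0.56), with the acetyltransferase EP300 at 1.02 and the chromatin reader BPTF at 0.91; the count was 1 after rescaling, 0 with no filter or without shPRMT5 replicate 2, 3 without shGFP replicate 2 and 4 without shPRMT5 replicate 1. BPTF had 0.935 and 0.662 TPM under shGFP, against 1.75 and 3.11 TPM under shPRMT5. It passed the filter of 1 TPM through the shPRMT5 libraries. BPTF was not called after rescaling (limma adjusted p = 0.106), nor EP300 after quantile normalization (limma adjusted p = 0.0918). Under ΔNp63α 1 of 18, ACTL6A, a subunit of chromatin remodelling complexes, was higher, from 60.4, 48.2 and 53.6 TPM to 79.2, 100.3 and 86.1 TPM (log2 fold 0.70, SE 0.16, limma adjusted p = 0.00804). All 14 alternatives called ACTL6A, and 7.34% of all genes were called higher in the main fit. The count of higher coactivators rose to 4 without vector replicate 1 and to 3 with a replicate block. All genes called higher then rose from 982 to 1431 and 1473.

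Of 19 genes that govern turnover of the MYC protein, 8 were higher and 0 lower in the knockdown. Over all genes 15.1% were higher and 3.48% lower, and the median log2 fold of the list was 0.49. The ubiquitin ligase HUWE1 was among the 8, at a log2 fold of 0.98. After rescaling 2 were called, while all genes called higher fell from 1904 to 457. The count was 2 after quantile normalization, 3 with no filter and 5 with no trend. All genes called higher numbered 400, 756 and 950 in these fits, in that order. With each library left out the log2 fold of HUWE1 ran from 0.74 to 1.22. Calls of those fits are not given, since 1 group then holds 1 library. Under ΔNp63α 3 of 19 were higher and 1 lower, beside 7.34% and 14.1% of all genes. The higher count was 1 in 7 alternatives: no filter, no trend, without mitochondrially encoded genes, and without vector replicate 2, vector replicate 3, ΔNp63α replicate 2 or ΔNp63α replicate 3. The lower count was 0 without vector replicate 3 or ΔNp63α replicate 1, and 2 without vector replicate 2. FBXW7, the ligase subunit that marks phosphorylated MYC for degradation, rose from 4.73, 3.49 and 4.23 TPM to 8.33, 12.2 and 11.3 TPM (log2 fold 1.16, SE 0.20, limma adjusted p = 0.00189), called in each of 14 alternatives. FBXO28, another F-box protein, had a log2 fold of 0.57, a call lost in 7 of 14 alternatives. USP28, the deubiquitinase known to oppose FBXW7 on MYC, fell from 19.9, 18.0 and 25.7 TPM to 9.80, 14 and 14.6 TPM (log2 fold -0.69, SE 0.20, limma adjusted p = 0.0300). It is the lower gene of this count. In the knockdown FBXW7 had a log2 fold of 0.49 and was not called, while USP28 was higher, with 6.15 and 6.46 TPM against 11.7 and 12.9 TPM (log2 fold 0.86, limma adjusted p = 0.0166).

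In the Polycomb complex around MGA, 2 of 9 tested genes were higher in the knockdown, beside 15.1% of all genes: PCGF6, its defining RING finger subunit (log2 fold 1.08, limma adjusted p = 0.00555), and TFDP1 (log2 fold 0.72). After rescaling 1 was called, while all genes called higher fell from 1904 to 457. TFDP1 was not called after rescaling (limma adjusted p = 0.108), nor PCGF6 after quantile normalization (limma adjusted p = 0.0523). With each library left out the log2 folds ran from 0.83 to 1.33 for PCGF6 and from 0.62 to 0.82 for TFDP1. Calls of those fits are not given, since 1 group then holds 1 library. Under ΔNp63α 0 of 11 were called by limma, beside 7.34% of all genes called higher and 14.1% lower. The higher count was 2 after rescaling or without vector replicate 1, where all genes called higher rose from 982 to 1495 and 1431.

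Genes that MYC is known to activate, most of them of the nucleolus and of ribosome production, were higher under ΔNp63α in 20 of 54 tested and lower in 2, beside 7.34% and 14.1% of all genes, with a median log2 fold of 0.54 beside -0.04 for all genes. After rescaling 29 were higher and 1 lower, while all genes called higher rose from 982 to 1495. ODC1, the first enzyme of polyamine synthesis, rose from 170, 106 and 106 TPM to 430, 404 and 406 TPM (log2 fold 1.73, SE 0.18, limma adjusted p = 7.51e-05). NDUFAF4, an assembly factor of respiratory complex I, rose from 8.26, 4.21 and 3.27 TPM to 11.8, 18.7 and 13.4 TPM (log2 fold 1.38, SE 0.28). The 2 lower genes serve glycolysis: HK2 fell from 60.0, 87.8 and 108.7 TPM to 23.7, 27.7 and 27.4 TPM (log2 fold -1.63, SE 0.20), and LDHA fell from a mean of 1836 ± 203 TPM to 1188 ± 128 TPM (SD, n = 3 each; log2 fold -0.63) and was not called after rescaling (adjusted p = 0.0577). The count of higher genes was 38 without vector replicate 1, 8 without vector replicate 3, 10 without vector replicate 2 or ΔNp63α replicate 3, and 12 without ΔNp63α replicate 1. All genes called higher numbered 1431, 426, 717, 417 and 791 in these fits, in that order, beside 982 in the main fit.

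In the knockdown the same list had 13 higher and 1 lower of 56, beside 15.1% and 3.48% of all genes, with a median log2 fold of 0.32 beside 0.25 for all genes. After rescaling 2 were higher and 3 lower. Over all genes the higher then fell from 1904 to 457 and the lower rose from 440 to 868. ODC1 rose from 215 and 214 TPM to 339 and 391 TPM (log2 fold 0.76, limma adjusted p = 0.00115). NOLC1, a nucleolar phosphoprotein, had a log2 fold of 0.95 and UTP20, of the small subunit processome, 1.00, while SRM, the spermidine synthase, fell from 382 to 276 TPM (log2 fold -0.47). CACGTG lay in 14 of the 61 promoter windows found for 47 of the 58 genes of the list, 23.0%, beside the 6.34% of all windows. A share above that of all windows was not particular to this list. It held for the MGA complex (2 of 11 windows), the coactivators (3 of 19) and MYC turnover (4 of 28). For MYC-repressed genes the share rested on 1 window (1 of 13, 7.69%) and was near that of all windows. For MondoA-MLX targets it also rested on 1 window (1 of 3). The share was lower for the SIN3-HDAC corepressor (1 of 26) and the other partners (0 of 4).

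Genes known to be repressed by MYC were called in both directions. Under ΔNp63α 2 of 11 were higher, CEBPA (log2 fold 0.84), a factor of differentiation whose call was lost without vector replicate 3 or ΔNp63α replicate 3, and NDRG2 (0.83), and 4 were lower, beside 7.34% and 14.1% of all genes. NDRG1, named for its repression by MYCN, fell from 446, 739 and 851 TPM to 78.4, 121 and 92.6 TPM (log2 fold -2.76, SE 0.23, limma adjusted p = 1.21e-05). THBS1, the matrix protein thrombospondin, had 4.52, 3.28 and 4.34 TPM with vector, against 0.448, 0.786 and 1.01 TPM with ΔNp63α (log2 fold -1.54). It passed the filter of 1 TPM through the vector libraries. The other two were GADD45B and CDKN1A, named after their values were seen. After rescaling 2 were higher and 2 lower, and the lower count was also 2 without vector replicate 3, ΔNp63α replicate 1 or ΔNp63α replicate 2. In the knockdown 1 of 11 was higher, the CDK inhibitor CDKN2B (log2 fold 0.82), and 1 lower, the stress gene GADD45B (-0.51), beside 15.1% and 3.48% of all genes; CDKN2B was not called after rescaling, and neither was called without shPRMT5 replicate 2. The lists were drawn up with earlier results of these data known.

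**Figure D4:**
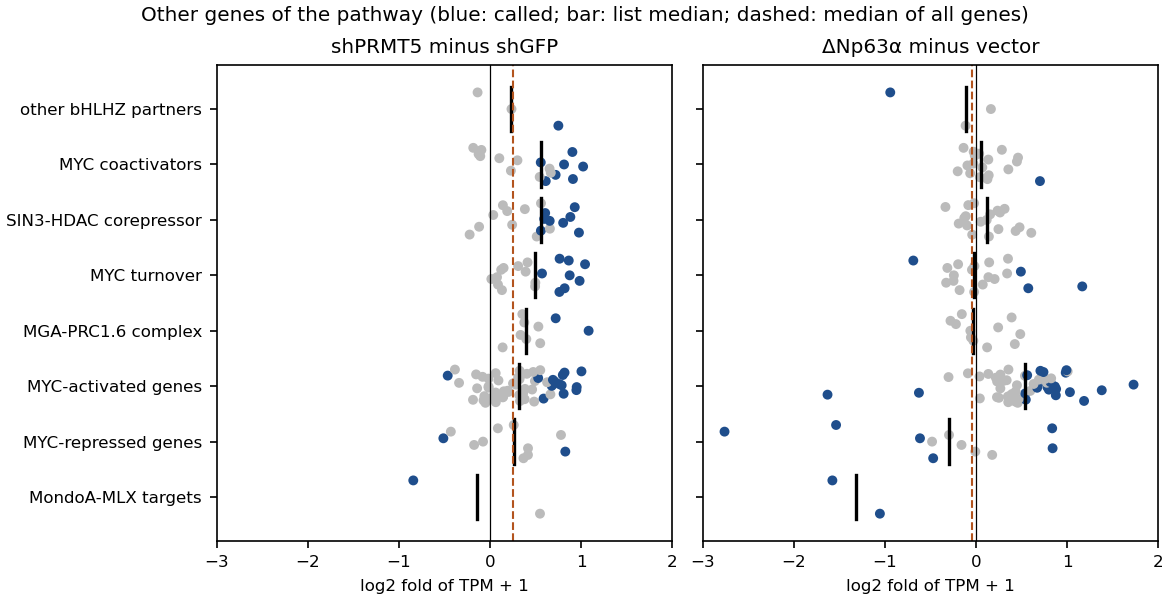
Log2 fold of TPM + 1 of each tested gene of the 8 lists (points, blue where called at a limma adjusted p under 0.05), with the list median (bar) and the median of all genes (dashed). In the overexpression the MYC-activated genes lie mostly to the right, with a median of 0.54 and HK2 and LDHA to the left; in the knockdown the medians lie close to or to the right of 0.25 except for the MondoA-MLX targets.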

How the data were processed

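Groups and replicate numbers follow the sample titles. The authors deposited TPM, scaled to the same total in every column over its listed genes. Per the submitters' processing notes, which state no role for any of them, the tools were DESeq2 1.24.0, featureCounts, Bowtie and FastQC and the builds hg19 and GRCh37; which of them made these values is not given in the sources used. Rows with no gene (2 in the knockdown table, 1 in the other) were dropped, and 9 gene symbols per table, altered to dates, were recovered by gene ID. The second table lists 16 mitochondrially encoded genes and the first 0, so levels are not on 1 scale across tables and each was fitted alone.

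Genes with a mean of at least 1 TPM entered limma 3.58.1 (R 4.3.3) as log2(TPM + 1), with eBayes and its intensity trend. Calls are two-sided, at an adjusted p (Benjamini-Hochberg, all genes tested) under 0.05. The fit was checked on simulated data. This scale understates the folds of low genes. Network genes and lists were chosen with earlier results of these data known, so no list has a test. Named were the 9 network genes, PRMT5 and TP63, up to 2 called genes per list, direction and experiment of largest fold, and the 5 genes most like MXD1; genes without a call are named beside them where a comparison needs them. A gene that the rule names is not reported here. Alternatives were a pseudocount of 0.1, no filter, a filter at 5 TPM, 3 rescalings, no trend, a replicate block and each library left out. The rescaling without mitochondrially encoded genes changes no value in the knockdown, where 0 are listed. It is counted among the alternatives there but is no check. Sequences are those of RefSeq, GRCh38.p14. Python 3.11.15 with pandas 2.3.3, NumPy 2.4.6 and Matplotlib 3.10.9 served for tables and figures.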

Additional observations from a re-analysis of the deposited data

How the results depend on the processing

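MXI1 kept its fall under ΔNp63α in all 14 alternatives. MXD1 kept its direction in all 14 there and in all 11 that could be run in the knockdown, where a filter at 5 TPM removed it and MGA. That count is no check on MXD1, which was taken up for its directions. Its groups did not overlap in either experiment, so leaving out 1 library could not reverse it. The filter, the trend and the replicate block do not alter its log2 fold, nor does leaving out mitochondrially encoded genes in the knockdown. Of the network genes other than MXD1, those called higher numbered 1 with a replicate block in each experiment, in place of 0: MAX in the knockdown (adjusted p = 0.0485) and MXD4 under ΔNp63α (adjusted p = 0.0278). Deviations of same-numbered libraries correlated across genes at 0.09 in the knockdown and at 0.32, 0.23 and 0.09 in the overexpression. Vector replicate 3 correlated better with ΔNp63α replicate 2 (0.14), while the other overexpression pairs of unlike number ran from -0.33 to 0.03. The samples were taken to share only a number, and a shared batch was not tested. With a replicate block all genes called rose from 1904 higher and 440 lower to 2856 and 630 in the knockdown. Under ΔNp63α they rose from 982 and 1893 to 1473 and 2416. With each library left out, network genes called higher ranged from 0 to 1 in both experiments.

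Over all genes in the knockdown, 1904 were called higher and 440 lower. These were 756 and 237 with no filter, 457 and 868 after median-of-ratios rescaling, and 950 and 203 with no intensity trend; 400 were higher after quantile normalization. With each library left out the higher genes ranged from 170 to 2385 and the lower from 154 to 716. Under ΔNp63α 982 were higher and 1893 lower; 1495 were higher after median-of-ratios rescaling and 1527 after quantile normalization, and with each library left out the higher ranged from 417 to 1431 and the lower from 1150 to 1947. The share of calls that were higher went from 81.2% to 34.5% on rescaling in the knockdown and from 34.2% to 46.9% in the overexpression. The cause was not tested. A list count under an alternative is to be read beside the all-gene count of the same alternative. For the 8 lists, 58 of their counts moved by over 1.5 times and 134 did not in the knockdown, and 39 and 185 in the overexpression. Absolute depth is unknown, so what it limits could not be computed.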

Other observations

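The control groups of the 2 experiments, both UM1, are set side by side here with no test, since their tables were normalized separately. Mean MYC was 151 TPM under shGFP and 209 TPM with vector, and mean MAX 17.4 and 16.6 TPM. Mean MXD1 was 2.45 and 48.2 TPM, mean MXI1 10.6 and 49.7 TPM and mean MGA 1.03 and 5.94 TPM, while MXD4 stood at 50.02 and 23.3 TPM and MXD3 at 20.5 and 11.6 TPM. The ratio of MXD1 to MXI1 within a library, which needs no common scale, was 0.239 and 0.225 under shGFP and 0.823, 0.811 and 1.198 with vector. Under shPRMT5 it was 0.625 and 0.651, and under ΔNp63α 0.342, 0.426 and 0.455.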
